A study of Mus musculus with 4 samples.

Results

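Layer 6b excitatory nuclei were taken from 4 single-nucleus RNA-seq libraries of GCLC-KO cortex and were chosen by their own transcript counts. A nucleus was a member when it had at most 7000 detected genes, at most 1% mitochondrial UMIs (molecular tags that let each captured RNA be counted once), a UMI of Slc17a7, none of Gad1 or Gad2, and a UMI of at least 2 of the 3 markers Cplx3, Ccn2 and Nxph4. This gate found 134 nuclei among 14291 excitatory nuclei and 30515 nuclei within the first 2 limits. The libraries are 3M-1 and 3M-2, from mice of 3 months, then 6M-1 and 6M-2, from mice of 6 months, with 1 mouse each, and values are given in that order throughout. They held 42, 24, 32 and 36 layer 6b nuclei. All 4 mice carried the floxed Gclc allele of the strain C57BL/6NTac-Gclctm1a(EUCOMM)Wtsi/WtsiCnbc and CaMKII-Cre, whose promoter drives Cre in forebrain excitatory neurons. No wild-type or Cre-negative library was analysed here. The tissue was a cortical region rich in rod-shaped microglia, and nuclei were sorted on DAPI before droplet capture.

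Layer 6b is the deepest sheet of the neocortex, lying on the white matter, and in mice it holds neurons that persist from the embryonic subplate, among the earliest generated neurons of the cortex. Cplx3 encodes a complexin, a protein that binds the SNARE complex of synaptic vesicle fusion. Ccn2 encodes a secreted matricellular protein of the CCN family, and Nxph4 encodes a neurexophilin, a secreted ligand of neurexins. Layer 6b neurons are known for receptors of orexin and dopamine, and their neighbours in layer 6 include the corticothalamic neurons, which project back to the thalamus.

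In GENCODE M21 (GRCm38), Cplx3 lies at chr9:57599992-57606281 on the minus strand, Ccn2 at chr10:24595442-24598683 on the plus strand and Nxph4 at chr10:127525473-127534559 on the minus strand. Inpp4b, a leading gene that the gate did not read, lies at chr8:81342556-82127914 on the plus strand. The 250 bases before the RefSeq start of Cplx3 (chr9:57606282-57606531, minus strand) and of Inpp4b (chr8:81342312-81342561, plus strand) are shown from RefSeq (GRCm38.p6), one as a marker of the gate and the other as the higher gene outside it that came next after Svil by p. Svil, Ccn2, Nxph4 and C130073E24Rik had no entry in the promoter table. RefSeq places the start of Inpp4b slightly downstream of the GENCODE start, so the last bases of its window lie within the GENCODE gene. Capitals mark the E-box palindromes CACGTG and CAGCTG.
Cplx3: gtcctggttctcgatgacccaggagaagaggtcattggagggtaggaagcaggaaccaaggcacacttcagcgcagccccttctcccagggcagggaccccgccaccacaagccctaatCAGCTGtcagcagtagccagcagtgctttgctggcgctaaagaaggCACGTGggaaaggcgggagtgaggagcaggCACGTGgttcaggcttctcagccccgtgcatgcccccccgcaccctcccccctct
Inpp4b: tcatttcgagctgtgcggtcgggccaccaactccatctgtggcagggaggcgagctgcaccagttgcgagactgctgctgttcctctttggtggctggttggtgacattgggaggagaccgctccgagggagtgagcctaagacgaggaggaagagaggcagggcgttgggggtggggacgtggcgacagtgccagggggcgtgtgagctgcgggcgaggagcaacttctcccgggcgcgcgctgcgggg
The Cplx3 window held both palindromes and the Inpp4b window neither. Of 32851 promoter windows of the same length, 6.02% held CACGTG and 13% held CAGCTG. The same search, on both strands, was made for AAAGGTCA (the NBRE of NR4A receptors, in 1.34% of all windows), AGGTGTGA (a T-box element, 1.12%) and TGACGTCA (a cyclic AMP response element, 1.55%). Of the 3 markers and the 10 leading higher genes, 9 had entries in the promoter table, 16 windows in all. CACGTG was found in 1 of the 16 and CAGCTG in 2, and the other 3 motifs in none. These counts describe letters in a window only.

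The markers came in unequal combinations. Of the 134 nuclei, 89 had UMIs of Cplx3 and Ccn2 only, 13 of Cplx3 and Nxph4, 14 of Ccn2 and Nxph4, and 18 of all 3. Levels are given as CPM: the UMIs of a gene divided by all UMIs of the class and scaled to the same total in every sum. Cplx3 was at 66.1, 106, 126 and 102 CPM in the layer 6b nuclei of the 4 libraries, and Ccn2 at 149, 123, 121 and 132 CPM. Nxph4 was at 47.8, 16.7, 21.8 and 22.2 CPM, resting on 34, 6, 9 and 12 UMIs. Nxph4 was highest in 3M-1, where 50% of the layer 6b nuclei carried it against 25% to 27.8% in the other libraries. These levels describe the gate and were not tested. A further 19 nuclei had at least 2 markers but a UMI of Gad1 or Gad2, and 13 had at least 2 markers with no UMI of Slc17a7, Gad1 or Gad2.

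Oligodendrocyte nuclei, which should lack the markers, gave the level of free RNA. They had a UMI of Ccn2 in 0.380% to 1.12% of nuclei per library, of Cplx3 in 0.259% to 0.714% and of Nxph4 in at most 0.102%, at medians of 2899.5, 1779, 2068.5 and 2384.5 UMIs per nucleus. These nuclei were shallower than layer 6b nuclei. With all nuclei thinned to 4000 UMIs before the classes were set, 144, 41, 136 and 116 oligodendrocyte nuclei were left, with a UMI of Cplx3 in 0, 2.44, 1.47 and 1.72% against 0.765, 0.934, 1.06 and 1.48% of excitatory nuclei. For Ccn2 the shares were 0.694, 2.44, 0.735 and 0% against 1.80, 1.51, 1.76 and 1.66%. At equal depth the Cplx3 share of excitatory nuclei was thus below that of oligodendrocyte nuclei in every library but 3M-1, and the Ccn2 share only in 3M-2. These oligodendrocyte shares rest on at most 2 nuclei with a UMI per library and marker. By their counts before thinning, only 128, 33, 110 and 87 nuclei of at least 4000 UMIs met the oligodendrocyte gate. Some of the thinned nuclei had thus carried a UMI of Slc17a7, Gad1 or Gad2. Their shares are therefore no clean measure of free RNA. Without thinning, excitatory nuclei had a UMI of Cplx3 in 2.11, 1.36, 1.91 and 3.19% and of Ccn2 in 3.6, 2.59, 2.73 and 3.78%, above the oligodendrocyte shares of every library. Of the thinned oligodendrocyte nuclei 1 had 2 markers or more. Without thinning, of 3759 such nuclei, 1 had 2 markers or more. Between 12 and 19 barcodes were shared per pair of libraries, and none of them belonged to a layer 6b nucleus. Scrublet called 3, 3, 2 and 0 of the layer 6b nuclei doublets.

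Genes outside the gate differed with the number of markers carried. Pooled over libraries, Svil was at 8.79, 91.3, 259 and 240 CPM in the excitatory nuclei with no marker (13630), exactly 1 (527), 2 (116) and 3 (18). Inpp4b was at 152, 586, 1309 and 1692 CPM in the same order, and Moxd1 at 2.84, 34.8, 95.6 and 162. Rorb, a transcription factor of layer 4, was at 177, 58.8, 12.8 and 42.2 CPM. Of the nuclei with 3, 2, 1 and no markers, 77.8%, 65.5%, 21.4% and 1.53% also carried at least 2 of Svil, Moxd1, Lpar1 and Drd1, a second gate chosen after the data had been seen. By library these were 8 of 9, 4 of 4, 2 of 2 and 0 of 3 of the nuclei with 3 markers, so 6M-2 went against the other libraries there. In all, 412 excitatory nuclei carried the second gate, 14 with 3 markers, 76 with 2, 113 with 1 and 209 with none. The nuclei with 1 marker, just outside the gate, stood between the layer 6b nuclei and the rest in Svil, Inpp4b and Moxd1, and were put in neither class below.

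Layer 6b nuclei were deeper than the nuclei they were compared with. Their median was 16587, 11684.5, 11236 and 13616.5 UMIs per nucleus, against 11620, 8011, 10200 and 10532 in other excitatory nuclei, here those with no marker. A gate that asks for UMIs is passed more easily by a deep nucleus, so the comparisons were also run with comparison nuclei drawn to the depths of the layer 6b nuclei. Summed over nuclei, the layer 6b class held 711129, 358452, 413436 and 539899 UMIs in the 4 libraries.

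With all UMIs, the share of layer 6b nuclei overlapped between the ages, and in a single draw of nuclei thinned to equal depth it did not. It was 1.30% of excitatory nuclei in 3M-1 (Wilson 95% interval 0.966 to 1.76) and 0.527% in 3M-2 (0.354 to 0.783). At 6 months it was 0.972% in 6M-1 (0.690 to 1.37) and 1.12% in 6M-2 (0.808 to 1.54). The highest and the lowest share were both at 3 months. The mean was 0.915% ± 0.549 at 3M and 1.04% ± 0.102 at 6M (SD, n = 2 each), a difference of 0.129 points with p = 1 in a two-sided exact permutation test, in which 2 mice against 2 cannot go below 0.333. Without 3M-2 the difference was -0.259 points and without 3M-1 it was 0.518 points, so its direction rested on 1 mouse. With every nucleus thinned to 4000 UMIs before the gate, the shares were 0.270, 0.258, 0.370 and 0.360%, from 6, 8, 8 and 8 nuclei, a difference of 0.101 points (p = 0.333 by the same exact test, the smallest it allows). Both 6M shares were then above both 3M shares, although all 4 Wilson intervals overlapped. This order rests on a single random draw of UMIs, and no other draw was made. At this depth 1 of 437 oligodendrocyte nuclei, classed after thinning, had 2 markers or more, a nucleus of 6M-1. The low share of 3M-2, whose excitatory nuclei were the shallowest, was then close to that of 3M-1. The intervals cover counting error only.

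**Figure D1:**
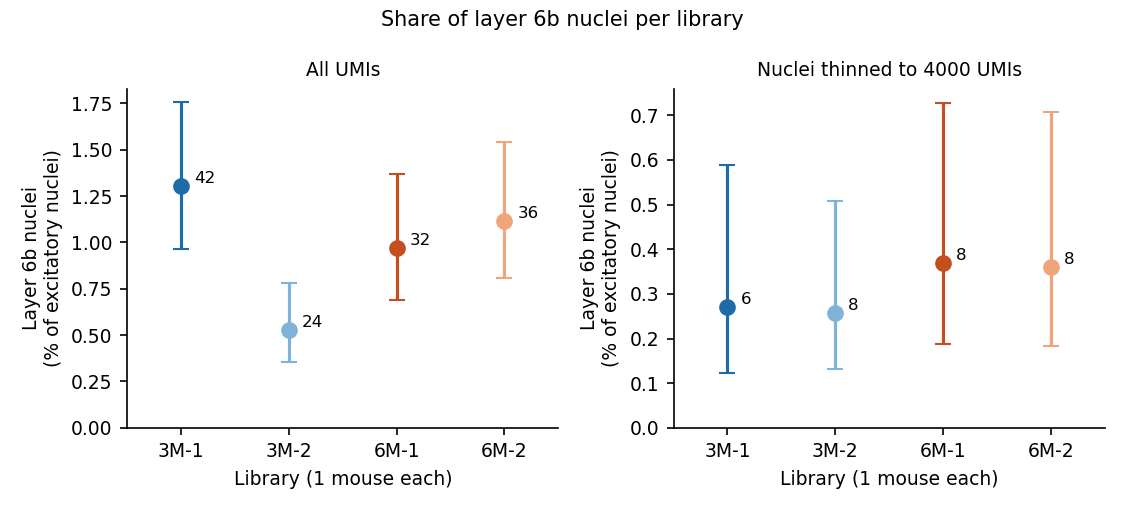
Share of layer 6b nuclei among excitatory nuclei (y axis, %) in each library (x axis). Shares are with all UMIs (left) and with nuclei thinned to 4000 UMIs in a single draw (right). Points are 1 mouse each, bars are Wilson 95% intervals, and numbers beside points are layer 6b nuclei. 3M-2 lies lowest at 0.527% on the left, while on the right both 6M points lie above both 3M points and all 4 intervals overlap.

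To ask which transcripts set these nuclei apart, they were compared with the 13630 other excitatory nuclei of the same mice by edgeR's quasi-likelihood test on the sum of UMIs of each class in each mouse. The comparison class was set only by the absence of the 3 markers and included the 209 nuclei with none that carried the second gate. The 6 gate genes were left out of the test. At a Benjamini-Hochberg adjusted p under 0.05, 2528 of 18073 genes differed (14%), of which 1042 were higher (5.77%) and 1486 lower (8.22%) in layer 6b nuclei. With a log2 fold change of 1 or more asked for as well, 476 were higher (2.63%) and 960 lower (5.31%). Over all genes tested, the median log2 fold change was -0.10. With comparison nuclei of matched depth 2399 genes differed, of which 2270 were among the 2528. The lower genes included 101 with no UMI in any layer 6b nucleus. The one of these with the highest level in the other class, Gm2164, was at 65.5 ± 20.1 CPM there (SD, n = 4), at least 44.1-fold above the level that 3 UMIs over all 4 layer 6b sums would give.

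Svil, which encodes the actin-binding protein supervillin, had the smallest p of all genes. It was at 252, 301, 186 and 287 CPM in layer 6b nuclei against 7.72, 6.45, 10.2 and 11.1 CPM in other excitatory nuclei. The lowest layer 6b value was far above the highest value of the other class, and the log2 fold change was 4.87 ± 0.13 (SE, edgeR adjusted p = 9.64e-285, higher in 4 of 4 mice). Inpp4b, an inositol polyphosphate phosphatase, was at 1530, 1200, 1485 and 1174 against 165, 145, 158 and 140 CPM (log2 fold change 3.14 ± 0.10). Galnt10, which starts mucin-type O-glycosylation, was at 288, 201, 300 and 215 against 18.9, 15.9, 19.4 and 20.3 CPM (3.75 ± 0.13). In these 3 genes the mice of a class lay much closer to each other than the classes did. Cdh18, a type II cadherin, was at 4155, 4051, 4656 and 4330 against 577, 443, 704 and 670 CPM (2.87 ± 0.10). Fbxl7, an F-box protein, was at 454, 142, 418 and 267 against 22.8, 24.2, 22.5 and 35.3 CPM (3.60 ± 0.12). Both replicate 1 libraries were above both replicate 2 libraries in layer 6b nuclei. By mouse the log2 ratios of Fbxl7 were 4.32, 2.57, 4.22 and 2.92, a wider spread than its SE gives. Each SE comes from the edgeR fit, which shares spread over genes, and is not the spread of the 4 mice. Rai14, an actin-associated protein, and Nhs, the gene of Nance-Horan syndrome, had log2 fold changes of 3.09 ± 0.11 and 3.60 ± 0.13. The other genes of the leading 10 were the long intergenic RNAs 4930555F03Rik, C130073E24Rik and Gm41414, with log2 fold changes of 3.33, 3.22 and 3.32.

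Tafa1, a secreted protein of the TAFA family, led the lower genes. It was at 74.5, 151, 50.8 and 14.8 CPM in layer 6b nuclei against 1411, 1801, 1564 and 1261 CPM in other excitatory nuclei (log2 fold change -4.50 ± 0.13). Epha6, an ephrin receptor, was at 132, 134, 50.8 and 24.1 against 1090, 820, 1109 and 1124 CPM (-3.66 ± 0.13). In both genes the layer 6b values of the 3M mice were above those of the 6M mice. By mouse the log2 ratios were -4.23, -3.57, -4.91 and -6.32 for Tafa1 and -3.04, -2.60, -4.42 and -5.49 for Epha6. Ntng1, the axon guidance protein netrin-G1, was at 14.1, 22.3, 16.9 and 29.6 against 349, 292, 393 and 374 CPM (-4.12 ± 0.17). Kcnq5, a subunit of M-type potassium channels, was at 281, 299, 121 and 172 against 1419, 1310, 1382 and 1255 CPM (-2.66 ± 0.11). Tcf4 encodes a basic helix-loop-helix transcription factor. It was at 180, 142, 99.2 and 156 against 1003, 919, 990 and 1057 CPM (-2.77 ± 0.12). Hs6st3, Kctd16, Pdzrn3, Slit3 and Ptprk completed the 10, with log2 fold changes from -3.69 to -2.77. Each of the 20 genes differed in the same direction in 4 of 4 mice, which the rule for naming them required.

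**Figure D2:**
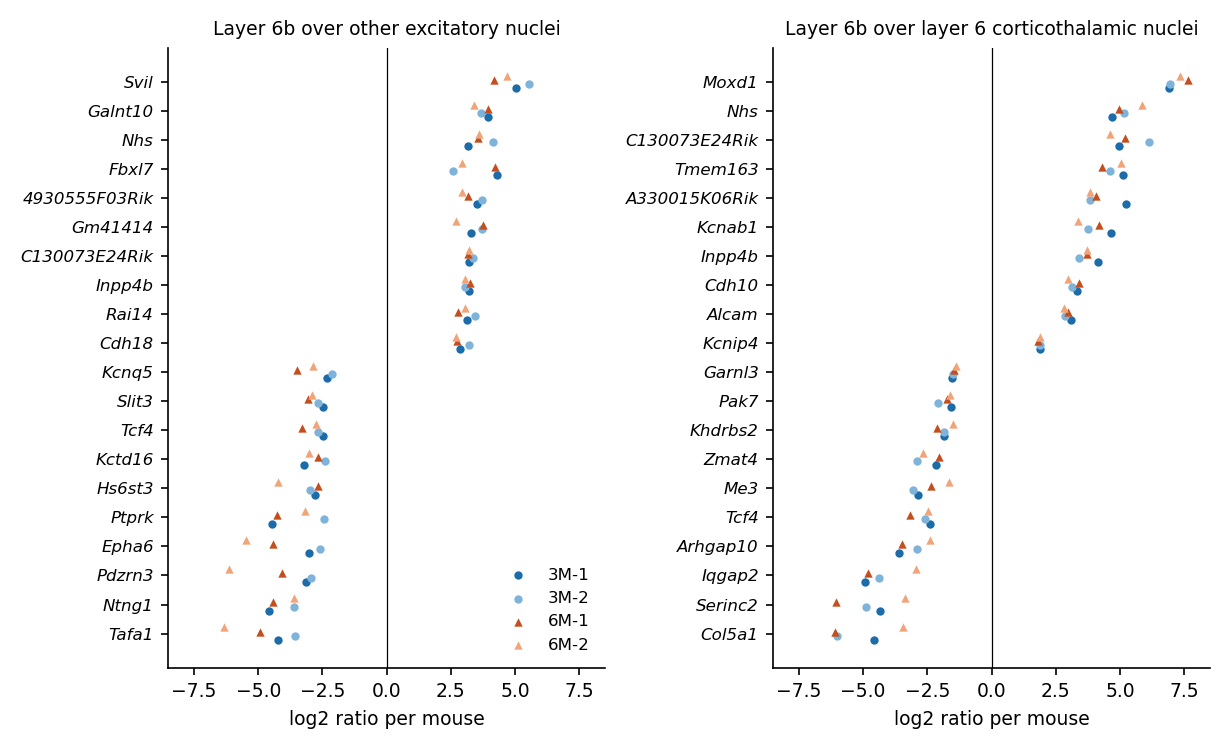
Log2 ratio of CPM in layer 6b nuclei over other excitatory nuclei (left) and over layer 6 corticothalamic nuclei (right) for the 10 genes with the smallest adjusted p in each direction. Each point is 1 mouse (circles 3M, triangles 6M), with a prior count of 0.5 UMI. All 4 points of a gene lie on the same side of 0, which the rule for naming these genes required.

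Genes known from subplate and layer 6b were gathered in a list of 25 that shares none with the gate. Of its 23 tested genes, 18 were higher in layer 6b nuclei and 1, Abi3bp, lower, with a median log2 fold change of 2.16. Over all genes 5.77% were higher and 8.22% lower, with a median of -0.10. Moxd1, a relative of dopamine beta-hydroxylase, was at 106 ± 10.7 CPM against 2.86 ± 0.55 CPM (SD, n = 4 mice, log2 fold change 5.22 ± 0.24). Drd1, the dopamine D1 receptor, was at 33.1 ± 8.79 against 2.72 ± 0.245 CPM (3.60 ± 0.35). Lpar1, a lysophosphatidic acid receptor, was at 80.4 ± 15.1 against 8.93 ± 2.84 CPM (3.19 ± 0.21). These receptors were scarce in the other class and present in every layer 6b library. Tmem163, a zinc transport protein, was at 448 ± 31.4 against 68.9 ± 5.41 CPM (2.70 ± 0.11). Nr4a2, an orphan nuclear receptor of subplate neurons, was at 129 ± 44.3 against 38.5 ± 13.4 CPM (1.71 ± 0.14). The heparan sulfate enzymes Hs3st4 and Sulf1 had log2 fold changes of 2.11 ± 0.09 and 2.93 ± 0.12. Kcnt2, Pamr1, Hcrtr1 and Crh did not pass, and Trh and Tnmd, with 2 UMIs each in all layer 6b nuclei, were too low to be tested. The list was chosen with earlier results of these data known, so its values describe the class and are no independent evidence for its label.

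**Figure D3:**
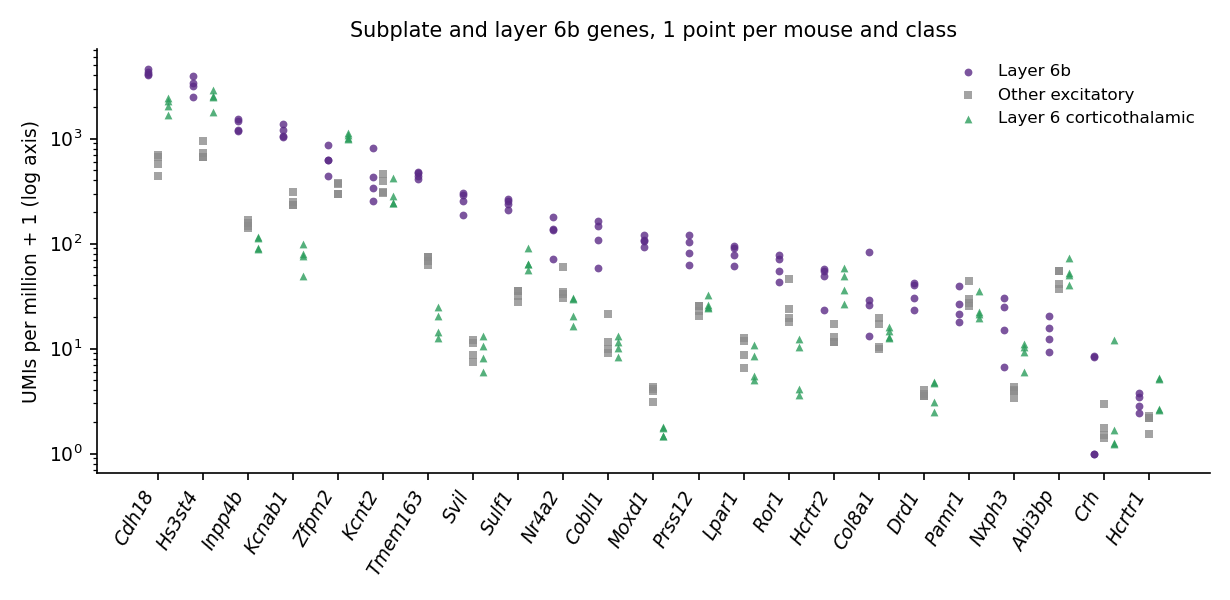
Level (CPM plus 1, log axis) of the tested genes of the subplate and layer 6b list in layer 6b nuclei, other excitatory nuclei and layer 6 corticothalamic nuclei, 1 point per mouse and class. Svil, Moxd1, Lpar1 and Drd1 are separated from both other classes, while Hcrtr2 overlaps the corticothalamic values.

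The share of nuclei with a UMI gave a second measure. With nuclei thinned to 4000 UMIs, 131 layer 6b, 12365 other excitatory, 1419 corticothalamic and 358 oligodendrocyte nuclei were left, all classed before thinning. Inpp4b had a UMI in 92.4% of layer 6b nuclei, against 24.6% of other excitatory, 20.5% of corticothalamic and 23.7% of oligodendrocyte nuclei. Tle4, a corepressor of deep layers, had one in 91.6% against 31.2% of other excitatory and 78.9% of corticothalamic nuclei. Galnt10 had one in 64.9% against 5.98% and 9.37%. Oligodendrocyte nuclei had one of Galnt10 in 10.3%. Inpp4b and Galnt10 were thus in most layer 6b nuclei. At this depth their shares in both other neuronal classes were close to or below those of the oligodendrocyte nuclei left. Pooled over all nuclei of a class, Inpp4b was at 152 CPM in other excitatory and 54.8 CPM in oligodendrocyte nuclei. Without thinning, the shares with a UMI of Inpp4b were 97.8, 36, 33.5 and 6.33% in layer 6b, other excitatory, corticothalamic and oligodendrocyte nuclei, those of Tle4 97.8, 47.2, 93.6 and 14.9% and those of Galnt10 88.1, 13.2, 20.6 and 4.2%. Tmem163, Pcsk5, Rai14, Dlc1, Lhfpl3, Cdh18 and Grik3 completed the 10 largest differences in share. Some of these genes were also frequent in corticothalamic nuclei: Cdh18 had a UMI in 100% of layer 6b and 96.8% of corticothalamic nuclei, Dlc1 in 93.9% and 82.9%, and Grik3 in 83.2% and 77.3%. In the opposite direction Tafa1 had a UMI in 12.2% of layer 6b nuclei, below the 25.7% of oligodendrocyte nuclei, and in 64.6% of other excitatory nuclei, and Tcf4 in 25.2% and 93%. Without thinning these shares were 20.1, 13.8 and 68.5% for Tafa1 and 53.7 and 96.4% for Tcf4.

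For the lists that follow, set against other excitatory nuclei, the shares over all genes were 5.77% higher and 8.22% lower, with a median log2 fold change of -0.10. Genes of upper layers, mostly transcription factors, were largely lower. Of 12 listed, 9 were lower and 2 higher in layer 6b nuclei, with a median log2 fold change of -2.0. Cux2 was at 38, 22.3, 9.68 and 5.56 CPM against 167, 148, 110 and 110, and Rorb at 17 ± 7.62 against 177 ± 43.8 CPM (SD, n = 4). Mdga1, an adhesion protein, was among the higher members (log2 fold change 0.59 ± 0.19). Its value was -0.56 (edgeR adjusted p = 0.722) with all 3 markers needed. Of 14 transcription factors and cofactors of deep layers, 7 were higher and 2 lower, with a median of 0.65. Tle4 and Nfia were higher by 2.21 and 1.69 on the log2 scale, and Etv1, a factor of layer 5 neurons, had a log2 fold change of -3.74 ± 0.28. Tbr1, Sox5, Fezf2, Ldb2 and Nr4a3 did not pass. Of 12 genes of other cortical projection classes, 9 were lower and none higher, Otof and Parm1 among them. Of 8 tested genes of claustrum and Car3 neurons, 5 were lower and none higher, with Ntng2 at 5.62 CPM in 3M-1 and at 0 in the other 3 libraries.

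Receptors for modulators were found in both directions. Of 53 tested, 15 were higher and 9 lower, with a median log2 fold change of 0.30, beside 5.77% higher, 8.22% lower and a median of -0.10 over all genes. Htr2a, a serotonin receptor, was at 67.5, 120, 96.8 and 88.9 CPM against 14.3, 19.5, 29.2 and 21.3 (2.16 ± 0.17). Chrm3, a muscarinic receptor, was at 1513, 1537, 1463 and 1521 against 662, 596, 746 and 641 CPM (1.20 ± 0.10). The classes did not overlap in these genes. Hcrtr2, an orexin receptor, was at 22.5, 55.8, 53.2 and 48.2 against 10.6, 11.8, 10.6 and 16 CPM (1.81 ± 0.24), while Hcrtr1 rested on 4 UMIs. Oprm1, the mu opioid receptor, the nicotinic subunits Chrna4 and Chrna5, and the histamine receptor Hrh1 were also higher. Among the lower genes were Crhr1, Cnr1 and the serotonin receptor Htr4, which had no UMI in the layer 6b nuclei of either 3M library and was at 34.7 ± 7.13 CPM in other excitatory nuclei. Of 15 tested neuropeptide genes none was higher, and 2, Cck and Adcyap1, were lower, a share near that of all genes.

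Of 38 subunits of glutamate and GABA receptors, 20 were lower and 5 higher, with a median log2 fold change of -0.40. Grin2a, an NMDA receptor subunit, was at 629, 996, 636 and 950 CPM against 1907, 1962, 1543 and 1959 (-1.22 ± 0.10), whereas Grin1 and Grin2b did not pass. Gabra2 had a log2 fold change of -2.52 ± 0.15, and Gabra5, at 131 ± 12.7 against 51 ± 11.3 CPM, one of 1.39 ± 0.13. The kainate subunits Grik3 and Grik4 were higher, and Grik1 and Grik2 lower. Camk2a, a kinase of excitatory synapses, was at 398, 382, 346 and 406 against 859, 789, 648 and 730 CPM (-0.98 ± 0.10), and Camk2d and Camk2n1 were lower too. Camk2a was detected in the layer 6b nuclei of every library, but Cre activity was not measured.

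Among relatives of the markers, the neurexophilin Nxph3 was higher (2.54 ± 0.42, from 34 UMIs), as was Ccn4 (1.58 ± 0.38). With all 3 markers needed the Ccn4 value was -0.0505 (edgeR adjusted p = 0.985). Cplx2, another complexin, was lower, at 19 ± 6.17 against 63 ± 9.52 CPM (-1.70 ± 0.21), and Cplx1 did not pass. Of 26 tested matrix and adhesion genes, 3 were higher, all collagens (Col19a1, Col24a1 and Col8a1), and 10 lower, with a median of -0.87. Col19a1 was at 284, 212, 324 and 343 against 41.7, 47.6, 54.6 and 38.5 CPM (2.69 ± 0.11). Of 20 immediate early genes 6 were lower, Fosl2, Bdnf and Arc among them, and the 1 higher was Nr4a2, which is also in the subplate list.

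Gclc, the target of the knockout and the catalytic subunit of the first enzyme of glutathione synthesis (chr9:77754535-77794485, plus strand), was at 49.2, 39.1, 38.7 and 29.6 CPM in layer 6b nuclei. In other excitatory nuclei it was at 42.1, 33.4, 34.2 and 36.3 CPM, and in corticothalamic nuclei at 50.5, 39.8, 35.8 and 36.7 CPM. The classes overlapped, and the log2 fold change against other excitatory nuclei was 0.09 ± 0.19 (edgeR adjusted p = 0.863). Counting at the 3′ end with no wild-type library gives no measure of the deletion. Of the 12 glutathione synthesis genes, 1 was lower and none higher. That gene was Slc1a1, a glutamate and cysteine transporter, at 68.9, 47.4, 67.7 and 75.9 against 105, 99, 101 and 112 CPM (-0.66 ± 0.15). Of 27 tested antioxidant and Nrf2 target genes, Me1, malic enzyme, was higher (0.73 ± 0.17) and none was lower, beside the 14% of all genes that differed. The Me1 value turned to -0.35 (edgeR adjusted p = 0.76) with all 3 markers needed. Of 26 tested genes of the integrated stress response and cell death, Gap43, a growth-associated protein, was higher (0.91 ± 0.12) and Vldlr, a lipoprotein receptor, lower.

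No marker of another cell type was called higher in layer 6b nuclei than in the comparison class. Of the 10 oligodendrocyte markers 7 were lower, with a summed level of 112, 50.2, 186 and 90.8 CPM against 215, 234, 379 and 433, and Mbp was the most abundant of them. Microglia markers summed to 60.5, 159, 164 and 152 against 102, 138, 200 and 188 CPM, with 2 of 10 lower. P2ry12 was the most abundant of them, at 79.5 ± 25.4 against 72.9 ± 17.5 CPM, and Tmem119 was at 0. The microglia sum was thus lowest in 3M-1, and its part in the age values was not tested. Astrocyte markers summed to 30.9, 27.9, 36.3 and 35.2 against 95.7, 89.3, 124 and 81.8 CPM, with Slc4a4 the most abundant and Aqp4, Fgfr3 and Gjb6 at 0. Inhibitory neuron markers summed to 42.2, 19.5, 43.5 and 48.2 against 91.1, 101, 119 and 94.6 CPM, with Adarb2 the most abundant, Dlx1 at 0, and Gad1 and Gad2 at 0 by the gate. OPC markers summed to at most 12.1 CPM, with Cacng4 the most abundant and Olig2 at 0. Vascular and leptomeningeal markers summed to at most 13 CPM, with Slc47a1 the most abundant and Rgs5, Col1a2, Slc6a13 and Igf2 at 0. Xist was at 1460, 1378, 1579 and 1717 CPM, and Ddx3y, Uty, Kdm5d and Eif2s3y had no UMI in the layer 6b nuclei of any library.

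Layer 6 corticothalamic nuclei are neighbours by position. They were taken as the 1458 excitatory nuclei (312, 398, 380 and 368 per library) with no layer 6b marker and a UMI of at least 2 of Foxp2, Syt6 and Rprm, and all 9 gate genes were left out of the test. Of 12815 genes, 1678 differed (13.1%), 897 higher (7%) and 781 lower (6.09%) in layer 6b nuclei. With a log2 fold change of 1 or more as well, 481 were higher (3.75%) and 405 lower (3.16%). With comparison nuclei of matched depth 1261 of 9537 genes differed, 1193 of them among the 1678. The median log2 fold change of all genes was -0.02. Moxd1 was at 108, 106, 119 and 92.6 CPM in layer 6b nuclei against 0.785, 0.746, 0.474 and 0.458 CPM in corticothalamic nuclei (log2 fold change 7.36 ± 0.27). Tmem163 was at 409, 477, 469 and 435 against 11.5, 19.4, 23.9 and 13.3 CPM (4.78 ± 0.14). Kcnab1, an auxiliary subunit of voltage-gated potassium channels, was at 1201, 1066, 1384 and 1024 against 47.9, 79.3, 75.3 and 98.1 CPM (4.02 ± 0.14). No value of either class came near the other in these genes. Kcnip4, a potassium channel interacting protein, was at 8434, 11636, 8812 and 9648 against 2259, 3153, 2530 and 2613 CPM (1.91 ± 0.07). The others of the 10 were Inpp4b, C130073E24Rik, the cadherin Cdh10, Nhs, the antisense RNA A330015K06Rik and the adhesion protein Alcam, higher by 2.97 to 5.20 on the log2 scale.

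In the lower direction Col5a1, a fibrillar collagen, was at 5.62, 0, 0 and 7.41 CPM against 151, 90, 83.4 and 91.2 CPM in corticothalamic nuclei (-4.76 ± 0.32). Serinc2 was at 5.62, 2.79, 0 and 9.26 against 128, 124, 80 and 106 CPM (-4.45 ± 0.29). Both were near 0 in every layer 6b library. Me3, a mitochondrial malic enzyme, was at 88.6, 78.1, 109 and 200 against 650, 666, 566 and 631 CPM (-2.39 ± 0.16), with 6M-2 above the other 3 libraries in layer 6b nuclei. Tcf4, low against other excitatory nuclei as well, had a log2 fold change of -2.60 ± 0.12. Iqgap2, Khdrbs2, Pak7, Garnl3, Arhgap10 and Zmat4 completed the 10, lower in 4 of 4 mice by the same naming rule. For the lists set against corticothalamic nuclei, the shares over all genes were 7% higher and 6.09% lower, with a median of -0.02. Of the 22 tested genes of the subplate list 16 were higher and 2, Zfpm2 and Abi3bp, lower, with a median of 1.88. Hcrtr2 stood at 44.9 ± 15.3 against 41.7 ± 14.1 CPM (0.11 ± 0.22, edgeR adjusted p = 0.838). Of the 9 tested corticothalamic genes 4 were lower (Crym, Col5a1, Ephb6 and Cdh9) and 3 higher (Tle4, Sla and Ntsr1). Tle4 was at 651, 650, 745 and 602 against 425, 505, 484 and 465 CPM (0.53 ± 0.09). Of the 13 tested genes of the deep layer list 3 were higher and 5, Sox5, Fezf2, Zfpm2, Etv1 and Foxp1, lower, with a median of -0.28. Of the 9 of the upper layer list 2 were higher and 3, Pou3f3, Mef2c and Lmo4, lower, with a median of 0.03. Both comparisons share the layer 6b sums, so their values are given side by side only.

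The age of the mice was then compared within layer 6b nuclei, 2 mice against 2. None of 6739 genes passed (0%) by edgeR, with 330 at an unadjusted p under 0.05 and a smallest adjusted p of 0.336. DESeq2 called 0 as well (63 unadjusted), and so did edgeR with the batch number of the labels as a block (363 unadjusted). In 970 genes both 6M values lay above both 3M values and in 1297 below. The genes with the smallest p, none past the threshold, were Hs3st2, Gm43507 and Chrm2 in the higher direction and Epha6, Thsd7a and Gpc6 in the lower. Hs3st2, a heparan sulfate sulfotransferase, was at 110, 80.9, 254 and 250 CPM (log2 fold change 1.41 ± 0.26, edgeR adjusted p = 0.336). Chrm2, a muscarinic receptor, was at 71.7, 47.4, 186 and 132 CPM (1.39 ± 0.31, edgeR adjusted p = 0.531). Epha6 had -1.83 ± 0.35 (edgeR adjusted p = 0.336). In each of these the ages did not overlap. Gclc gave a log2 fold change of -0.38 with an edgeR adjusted p of 0.993. None of the listed gene groups held a gene past the threshold. Under other settings, 4 of 983 genes passed with all 3 markers needed, and 29 passed with no filter on low counts.

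Whether the age difference of a gene in layer 6b nuclei departed from that in other excitatory nuclei of the same mice was tested as an interaction. With the mouse as a block, 48 of 18073 genes passed (0.266%), 15 with a relative rise at 6M (0.083%) and 33 with a relative fall (0.183%), and 721 had an unadjusted p under 0.05. This fit left 2 residual degrees of freedom, so its SEs and p values lean on spread shared over genes. DESeq2 called 1 gene, Epha6 (243 unadjusted), and no gene passed edgeR without the mouse block (629 unadjusted) or with the batch number in its place (524 unadjusted). Chrm2 rose by 1.76 ± 0.27 on the log2 scale relative to other excitatory nuclei, where it was at 64.6, 81.6, 47.5 and 63 CPM. Hs3st2 rose by 1.20 ± 0.24 and Gabrg3, a GABA receptor subunit, by 1.05 ± 0.23 in the same sense, while Epha6 had -2.03 ± 0.29. With each mouse left out in turn, the edgeR adjusted p stayed under 0.05 for Chrm2, Sorcs1, Epha6, Thsd7a and Dnah9 of the 20 genes named, and did not for the other genes. With all 3 markers needed, which left 18 layer 6b nuclei, none of the 20 passed, and the value of Chrm2 was 0.26 and that of Sorcs1 -0.14 (adjusted p = 1 for both). For Hs3st2 the value was 0.88 (adjusted p = 0.372) without 3M-2 and 0.17 (adjusted p = 1) in the layer 6b nuclei that also passed the second gate. For Gabrg3 the adjusted p was 0.123, 0.137 and 0.768 without 3M-1, 3M-2 or 6M-1. Scrublet had called 6 layer 6b nuclei of the 3M libraries and 2 of the 6M libraries. Without called doublets, 37 genes passed, 30 of them among the 48, and Tafa1 went from -1.54 to -0.0551 (adjusted p = 1). Thsd7a was then at -1.90 and no longer passed (edgeR adjusted p = 0.13).

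**Figure D4:**
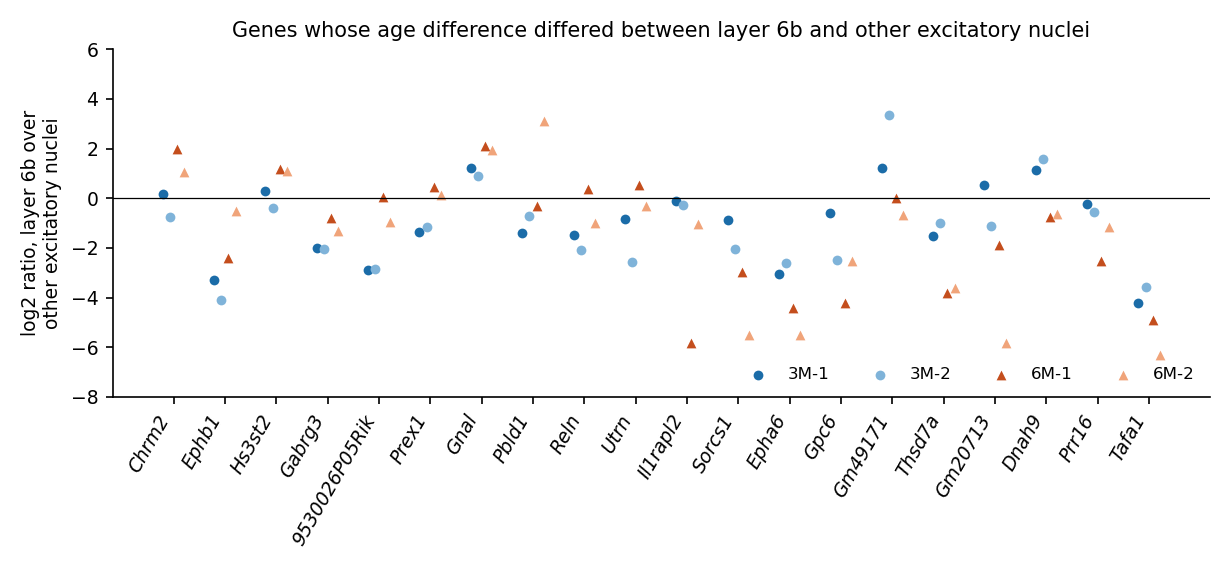
Log2 ratio of CPM in layer 6b nuclei over other excitatory nuclei of the same mouse (prior count 0.5 UMI) for the 20 genes named from the test of age by class. Circles are 3M mice and triangles 6M mice. In each gene both triangles lie on the same side of both circles, which the rule for naming these genes required.

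Several of these genes rested on few nuclei or on 1 library. Il1rapl2, a synaptic adhesion protein, was at 478, 360, 7.26 and 259 CPM, and its log2 value of -1.85 became -0.80 (edgeR adjusted p = 0.597) without 6M-1. Of the UMIs of Pbld1 in 6M-2, 96.9% came from 1 nucleus, and of those of Ephb1 in the same library 66%. A single nucleus also held 85.7% of the Thsd7a UMIs of 3M-1, and another 81.8% of those of 3M-2. The UMIs of Sorcs1 came from 4, 4, 6 and 2 layer 6b nuclei. The top nucleus held 68.8% of them in 3M-1 and 53.8% in 3M-2. For Gpc6 these shares were 62.6% and 50%, and for Epha6 45.7% and 41.7%. The UMIs of Chrm2 came from 12, 7, 16 and 10 layer 6b nuclei, and those of Hs3st2 from 28, 16, 24 and 21.

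Layer 6b nuclei were not uniform. Ward clustering of the 134 nuclei was read at 4 groups of 65, 36, 30 and 3 nuclei, described here by their leading genes and not tested. Group 1 led with Meis2, a homeobox factor (189 CPM against 7.7 in the other layer 6b nuclei), Col6a1, Dgkb, Cntnap5a, Sfmbt2 and Tafa1. Group 2 led with Igfbp4, Arhgap31, the semaphorin Sema3e (207 against 29), Sv2c, Pdlim1 and E130114P18Rik. Group 3 led with Olfr111, Tshz2, the integrin Itga9, Sox5os4, 9530026P05Rik and the adhesion protein Kirrel3 (2910 against 206). Foxp2 was at 351, 97.3 and 48.8 CPM in groups 1, 2 and 3, Nr4a2 at 121, 195 and 53.4 and Moxd1 at 51.2, 186 and 158. Foxp2 was thus highest in group 1, Nr4a2 and Moxd1 in group 2. Inpp4b was found in all 3, at 1022, 1719 and 1877 CPM, and 34 of 65, 31 of 36 and 25 of 30 nuclei carried the second gate. Group 4 held 3 nuclei of 6M-2 with a median of 1457 UMIs, and its leading genes, among them the microglial gene Mertk and the lymphoid and myeloid gene Ikzf1, each came from 1 of the 3. With nuclei under 5000 UMIs left out, 2511 genes differed from other excitatory nuclei and 47 passed the test of age by class.

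The groups were not evenly spread over libraries. Group 1 held 59.5%, 66.7%, 28.1% and 41.7% of the layer 6b nuclei of the 4 libraries, group 2 held 16.7%, 25%, 31.2% and 36.1%, and group 3 held 23.8%, 8.33%, 40.6% and 13.9%. Group 1 was thus larger in both 3M libraries than in both 6M libraries, and group 2 smaller. The genes named for age differed between these groups as well. Chrm2 was at 44, 74 and 307 CPM in groups 1, 2 and 3, Epha6 at 124, 16.9 and 69.7, and Hs3st2 at 200, 133 and 142. Within group 3 Chrm2 was at 214 and 214 CPM in the 3M libraries and at 379 and 385 in the 6M libraries. The 3M-2 value rested on 6 UMIs. Within group 2 Chrm2 was at 0, 14.2, 108 and 129 CPM in the 4 libraries. Within group 1 the ages overlapped, at 37.4, 38.5, 22.7 and 68.2 CPM. Within group 1 Hs3st2 was at 117 and 80.8 CPM at 3M and at 264 and 399 at 6M. Epha6 was there at 201 and 142 and at 68 and 20.5. In groups 2 and 3 the ages overlapped for both genes. Hs3st2 was at 109, 71, 241 and 98.1 CPM in group 2 and at 91.7, 107, 255 and 25.6 in group 3. Epha6 was at 0, 56.8, 16.6 and 12.3 CPM in group 2 and at 48.9, 249, 62.2 and 64.1 in group 3. Groups 1 to 3 had 2 to 25 nuclei per library, and the part that group sizes have in the age values was not tested.

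**Figure D5:**
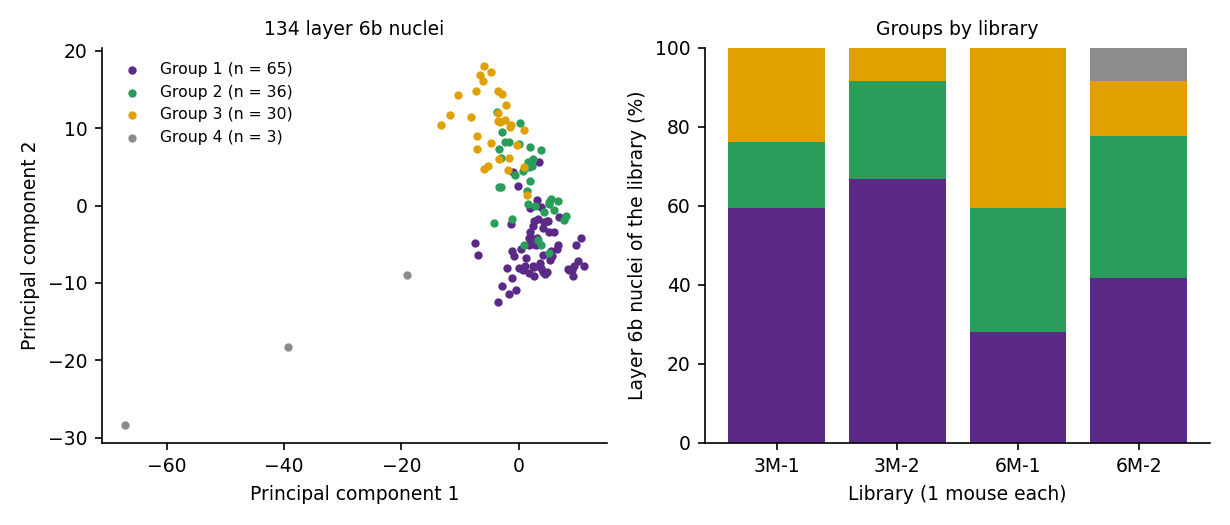
The 134 layer 6b nuclei on the first 2 principal components, coloured by Ward group (left), and the percent of each library's layer 6b nuclei in each group (right, bars from 0 to 100%). Group 1 takes 59.5% and 66.7% of the 3M libraries and 28.1% and 41.7% of the 6M libraries.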

How the data were processed

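Nuclei from the cortex of 4 GCLC-KO mice were captured with 10x Genomics 3′ chemistry. The matrices deposited by the authors contain unnormalized UMI counts, made with Cell Ranger 7.0.0 per the file headers. The submitters' processing notes name mm10 and Seurat. The annotation is not given in the sources used here, and 32158 of 32285 identifiers were found in GENCODE M21. The libraries held 64857084, 64299223, 71255054 and 63429297 UMIs in 30784 nuclei, and the limits on genes and mitochondrial UMIs left out 267 and 2.

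Sums of UMIs by mouse and class were tested with edgeR 4.0.16 (TMM, filterByExpr, quasi-likelihood, Benjamini-Hochberg over all genes, threshold 0.05), with the mouse as a block between classes. DESeq2 1.42.0, other gates, depth matching, Scrublet (scanpy 1.11.5) and leaving out each mouse were alternatives. The second gate, the limit of 5000 UMIs and other added alternatives were chosen after seeing the data. Named genes were the 10 with the smallest adjusted p in each direction among those past 0.05 with a log2 fold change of at least 1 and the same direction in every mouse (or ages that did not overlap), or else the 3 smallest p in each direction, beside gate genes, list members and leading genes of the Ward groups (20 principal components of 1000 genes). The members and the 24 lists (385 genes) were chosen with earlier results of these data known. The labels give the same batch number to the same replicate number at both ages, which pairs them. Deviations of same-numbered libraries correlated over genes at 0.0808 in layer 6b and -0.125 in other excitatory nuclei. The tests were tried first on simulated counts with 1 set spread for all genes. Of genes changed by 1 on the log2 scale, the age test recovered 10.3% and age by class 7%. The comparisons with other excitatory and corticothalamic nuclei recovered 45% and 59%. Of genes changed by 2, these 4 tests recovered 87.5%, 49%, 98% and 100%. Values of some list members are not reported here.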

Additional observations from a re-analysis of the deposited data

Results flagged for a closer look

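The 20 genes named from the test of age by class stood out because their age difference in layer 6b nuclei departed from that in other excitatory nuclei of the same mice by the interaction term itself. Values are log2 differences, 6M over 3M in layer 6b nuclei minus the same in other excitatory nuclei. The relative rises were 1.76 in Chrm2, 2.69 in Ephb1, 1.20 in Hs3st2, 1.05 in Gabrg3, 2.94 in 9530026P05Rik, 1.64 in Prex1, 1.03 in Gnal, 3.92 in Pbld1, 1.60 in Reln and 1.51 in Utrn. The relative falls were -1.85 in Il1rapl2, -2.43 in Sorcs1, -2.03 in Epha6, -1.81 in Gpc6, -2.76 in Gm49171, -2.48 in Thsd7a, -3.73 in Gm20713, -1.97 in Dnah9, -1.34 in Prr16 and -1.54 in Tafa1. Gnal, a G protein subunit that couples to the D1 receptor in striatum, was at 139, 117, 215 and 167 CPM in layer 6b nuclei and at 60.6, 63.8, 49.9 and 43 in other excitatory nuclei, with UMIs in 29, 16, 23 and 25 layer 6b nuclei. Dnah9 was at 61.9, 78.1, 21.8 and 29.6 CPM, from 17, 11, 6 and 14 nuclei. Utrn, the dystrophin relative utrophin, was at 23.9, 5.58, 114 and 42.6 CPM. Gm20713 had no UMI in the layer 6b nuclei of 6M-2. No outlier among mice could be tested, since each age had 2.

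Values that moved by over 1.5 times without 3M-1 were 3.08 in Utrn (adjusted p = 0.0282), -0.61 in Gpc6 (adjusted p = 1) and -2.44 in Gm20713 (adjusted p = 1). Values that moved by over 1.5 times without 3M-2 were -1.54 in Gm49171 (adjusted p = 1). Values that moved by over 1.5 times without 6M-1 were 0.77 in Reln (adjusted p = 1), -0.80 in Il1rapl2 (adjusted p = 0.597), -4.31 in Sorcs1 (adjusted p = 5.98e-11), -1.18 in Gpc6 (adjusted p = 0.152), -12.95 in Gm20713 (adjusted p = 2.36e-05), -0.72 in Prr16 (adjusted p = 1) and -2.41 in Tafa1 (adjusted p = 0.000312). Values that moved by over 1.5 times without 6M-2 were 1.24 in Ephb1 (adjusted p = 1), 1.12 in Pbld1 (adjusted p = 1), -5.81 in Il1rapl2 (adjusted p = 2.7e-26), -1.62 in Sorcs1 (adjusted p = 0.0209), -2.94 in Gpc6 (adjusted p = 2.41e-07), -2.08 in Gm20713 (adjusted p = 0.929), -2.12 in Prr16 (adjusted p = 1.49e-05) and -0.97 in Tafa1 (adjusted p = 1). Calls lost without a large move were those of Gabrg3, 9530026P05Rik, Prex1, Gnal, Pbld1, Reln and Prr16 without 3M-1, Hs3st2, Gabrg3, 9530026P05Rik, Prex1, Gnal, Pbld1, Reln, Utrn and Tafa1 without 3M-2, Gabrg3, 9530026P05Rik, Prex1, Gnal and Utrn without 6M-1, and Prex1 and Gnal without 6M-2. The value of Gm20713 without 6M-1 is set by 6M-2 at 0 UMIs, and its size cannot be read. Reln and Utrn also lost their calls with RLE normalization in place of TMM (edgeR adjusted p = 0.0597 and 0.067). They did so too with no filter on low counts (0.0589 and 0.0623) and without nuclei under 5000 UMIs (0.0622 and 0.0716). With called doublets left out, the edgeR adjusted p no longer stayed under 0.05 for the values of 0.84 in Gnal (adjusted p = 0.202), 3.78 in Pbld1 (adjusted p = 0.0567), 1.08 in Reln (adjusted p = 0.867), 1.53 in Utrn (adjusted p = 0.104), -1.90 in Thsd7a (adjusted p = 0.13), -0.88 in Prr16 (adjusted p = 0.272) and -0.0551 in Tafa1 (adjusted p = 1). In layer 6b nuclei that also passed the second gate the same held for the values of 2.91 in Ephb1 (adjusted p = 0.39), 0.17 in Hs3st2 (adjusted p = 1), 1.05 in Gabrg3 (adjusted p = 0.101), 0.88 in Gnal (adjusted p = 0.411), 0.0632 in Pbld1 (adjusted p = 1), 1.53 in Reln (adjusted p = 0.246), 1.40 in Utrn (adjusted p = 0.409), -0.16 in Gpc6 (adjusted p = 1) and -1.95 in Gm49171 (adjusted p = 0.288).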

How the results depend on the processing

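The share of layer 6b nuclei changed direction with 1 choice or mouse: the 6M minus 3M difference of 0.129 points became -0.107 with all 3 markers needed (18 nuclei), and leaving out each mouse in turn gave -0.259 (without 3M-2) to 0.518 points (without 3M-1). With all 3 markers needed, 791 genes differed from other excitatory and 540 from corticothalamic nuclei, 4 passed for age (of 983 tested) and 17 for age by class (4 shared with the 48). Leaving out each mouse gave 1939 to 2237, 1222 to 1360, 0 to 36 (36 without 3M-2, 1 without 3M-1) and 30 to 39 genes (30 without 6M-1) in these comparisons. An arm of 1 mouse is then assumed to vary like the other. With no filter on low counts 29 genes passed for age. For age by class DESeq2 called 1 gene, the second gate, chosen after seeing the data, gave 27 (18 shared), and the fits with no replicate block and with the replicate block by batch number gave 0. Without the block 1957 and 1208 genes differed from the other classes.

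Of 2591 values of 194 gene results under alternatives, 2233 kept direction and side of the threshold, 333 lost the call, 9 gained it and 16 changed sign. With all 3 markers needed, the log2 values that changed sign were -0.22 in Gabrg3, -10.05 in 9530026P05Rik, -9.33 in Pbld1, 0.0486 in Il1rapl2 and 12.64 in Thsd7a for age by class, -0.18 in Foxp2, -0.56 in Mdga1, -0.0505 in Ccn4, -0.35 in Me1 and -0.15 in Gclc against other excitatory nuclei, and 0.18 in Lamp5 and -0.27 in Gsdme against corticothalamic nuclei. Those of 9530026P05Rik and Pbld1 (no UMI in either 6M sum) and of Thsd7a (none in either 3M sum) are set by groups at 0, so their size and sign cannot be read. Gclc, which passed in neither class comparison, also changed sign against other excitatory nuclei without 3M-1 (-0.00371), and against corticothalamic nuclei with depth-matched nuclei (0.00504), with no replicate block (0.00271) and without 6M-2 (0.0362). Leaving out each mouse in turn gave -0.00371 to 0.171 and -0.0686 to 0.0362 for Gclc in these comparisons. The causes were not tested. Precision is limited by 24 to 42 layer 6b nuclei per mouse and 2 mice per age.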
